A study of Mus musculus with 13 samples.

Results

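The 10 genes described here make up the core of MHC class II antigen presentation in the mouse. They encode the classical chains H2-Aa, H2-Ab1 and H2-Eb1, the invariant chain Cd74, the peptide editor chains H2-DMa, H2-DMb1 and H2-DMb2, the editor's inhibitor chains H2-Oa and H2-Ob, and the transactivator Ciita. They were picked by symbol from the 54532 genes of the deposited table, and each symbol had 1 row. RNA came from the inguinal white fat (iWAT), a subcutaneous pad at the groin, of single mice that had fasted for 12 h. SF_HPD held 5 mice whose sleep was fragmented and who ate a high-protein diet, which gave 50% of its energy as protein, 38% as carbohydrate and 12% as fat. SF_ConD held 5 mice with the same sleep disturbance and matched chow, and SC_ConD held 3 mice with normal sleep on that chow. Mice were allotted to groups at random after matching by weight, and the labels used here give no strain, sex, age or length of the treatment.

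MHC class II molecules are pairs of an alpha and a beta chain that carry peptides from ingested proteins to the cell surface, where CD4 T cells read them. Cd74 occupies the groove while the pair travels, its last fragment is removed by the H2-DM heterodimer, and the H2-O heterodimer holds H2-DM back, mainly in B cells. Ciita is the coactivator without which most of these genes stay largely silent in B cells, dendritic cells and macrophages. It binds no DNA itself and is recruited by factors that sit on paired promoter elements called the X and Y boxes. Fat pads hold macrophages and dendritic cells, and the inguinal pad surrounds a lymph node, so all of these cell types can contribute class II transcripts to the tissue.

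The promoter elements are shown because 6 of the 10 genes hold a Y box with at least the first bases of an X box before it. The full X box was found in 4 of them. Windows from 250 bases before to 50 bases after the start, taken from RefSeq on GRCm38.p6, were at hand for 7 of the 10 genes, and the stretch with both boxes is printed for 6 of them. Capitals mark the X box, which is AAC, any 2 bases and ATGATG or, where only its first bases were found, AAC alone, and the Y box TGATTGG, which holds the reverse complement of the CCAAT element. Each stretch runs 5′ to 3′ on the gene's own strand.
H2-Aa: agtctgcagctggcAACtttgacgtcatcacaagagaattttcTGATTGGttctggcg
H2-Eb1: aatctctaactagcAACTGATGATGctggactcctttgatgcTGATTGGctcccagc
H2-DMb1: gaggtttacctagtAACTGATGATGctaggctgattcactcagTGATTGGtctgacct
H2-DMb2: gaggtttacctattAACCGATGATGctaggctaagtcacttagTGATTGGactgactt
H2-Oa: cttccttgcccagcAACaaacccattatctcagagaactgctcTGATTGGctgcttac
H2-Ob: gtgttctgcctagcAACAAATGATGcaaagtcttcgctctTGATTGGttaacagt

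These stretches lie on chromosome 17, at chr17:34287859-34287916 on the minus strand for H2-Aa and on the plus strand for the others. H2-Eb1's is at chr17:34305764-34305820, H2-DMb1's at chr17:34153085-34153142, H2-DMb2's at chr17:34145114-34145171, H2-Oa's at chr17:34092291-34092348 and H2-Ob's at chr17:34238806-34238860. The X box began 29 bases before the Y box in H2-Aa, H2-DMb1, H2-DMb2 and H2-Oa, 28 bases in H2-Eb1 and 26 bases in H2-Ob. Only an AAC 25 to 35 bases before a Y box was looked for, and the one nearest to 29 bases was taken. The even spacing is thus partly set by the search, and H2-Oa holds another AAC 25 bases before its Y box. Counted from the start, the Y box began at position -45 in H2-Oa, the nearest, and at -92 in H2-DMb2, the farthest. Among 32851 mouse promoter windows, TGATTGG was found on either strand in 7.82% and the full X box in 0.137%. AAC followed 25 to 35 bases later by TGATTGG was found in 0.472%, and the full X box with a Y box at that distance in 4 windows, which were those of H2-Eb1, H2-DMb1, H2-DMb2 and H2-Ob. The letters were chosen after these sequences had been read, so the shares describe the windows and test nothing. Both windows of H2-DMa lie upstream of the start that the deposited table gives, and neither held TGATTGG. RefSeq starts differ from the deposited ones in other genes too. By the deposited starts, the stretches of H2-DMb1 (start 34153072) and H2-DMb2 (start 34143307) lie inside the gene, and that of H2-Oa (start 34092340) ends inside it.

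**Figure D1:**
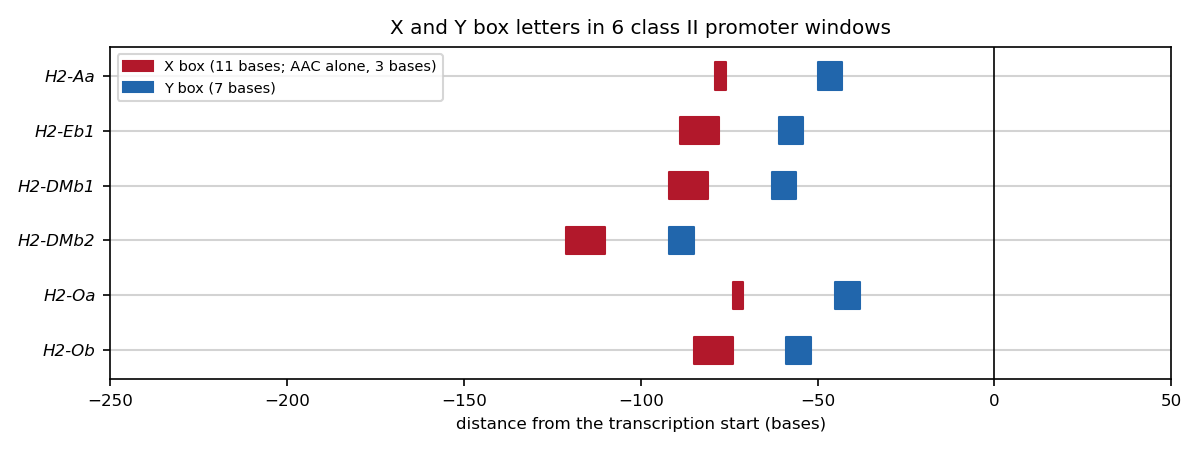
Distance in bases from the RefSeq transcription start (horizontal axis) of the X box (red) and Y box (blue) in the 6 windows, 1 row per gene, with the start at 0. In each of the 6 the X box lies 26 to 29 bases before the Y box, and both lie before the start. For H2-Aa and H2-Oa only the AAC of the X box was found.

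The libraries differed in their tissue content more than in their depth. Recovered reads ran from 14815592 to 18303302 per library, while the FPKM sums differed 5.03-fold. Orders of libraries by FPKM can therefore change when levels are rescaled to TPM, and TPM values are given for some such changes. Adipocyte markers, led by Fabp4, Cidec and Adipoq, had a mean log2(FPKM + 1) of at least 7.19 in 12 libraries and of 3.97 in SF_HPD 2. The 12 B cell markers, led by Cd79b, Cd79a and Ighd, had means of 3.60 to 4.64 in SF_HPD 4 and 5 and SF_ConD 1, 4 and 5, against 0.0923 to 1.16 in the other 8 libraries. T cell markers and lymph node stroma markers such as Glycam1 were high in the same 5. Dendritic cell markers were also highest there, with means of 2.19 to 2.85, against 1.55 or less in the other 8. Macrophage markers, led by Lyz2, C1qa and C1qb, were present in every library, with means between 2.41 in SF_ConD 3 and 4.88 in SF_HPD 3. Liver transcripts were high in SC_ConD 2 and 3, with means of 9.74 and 8.39. In SF_HPD 1 and 4, SF_ConD 3 and SC_ConD 1 the levels of long transcripts ran high relative to short ones (Spearman rho of the length trend 0.442 to 0.527 across genes, against -0.453 to 0.0606 in the other 9).

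Across the 13 libraries the class II genes took 0.0172% to 0.619% of all reads. They took 0.0625%, 0.0172%, 0.104%, 0.269% and 0.269% in SF_HPD 1 to 5, 0.619%, 0.0975%, 0.0349%, 0.563% and 0.246% in SF_ConD 1 to 5, and 0.0622%, 0.160% and 0.0920% in SC_ConD 1 to 3. The 5 libraries with high B cell markers had the 5 highest shares, and the other 8 ranged up to 0.160%. All 10 genes passed the filter on low values (1 FPKM or more in 3 or more libraries), which kept 14421 genes. In bulk tissue, fewer cells of a type and less RNA per cell cannot be told apart.

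The classical chains and the invariant chain were by far the highest of the 10. Cd74, H2-Aa, H2-Ab1 and H2-Eb1 held the 4 highest places by FPKM in 13 of 13 libraries and 88.0% to 96.4% of the class II reads. Cd74 was highest in 7 libraries, H2-Aa in 4 and H2-Eb1 in 2. H2-Aa (ENSMUSG00000036594, chr17:34282744-34287827, minus strand), the alpha chain of the A molecule, was at 42.9, 72.6, 157, 204 and 942 FPKM in SF_HPD 1 to 5. It was at 1289, 162, 26.2, 648 and 665 FPKM in SF_ConD 1 to 5, and at 57.3, 592 and 243 FPKM in SC_ConD 1 to 3. The groups overlapped over most of their range, and by FPKM the lowest and the highest library of all were both SF_ConD. By TPM the lowest was SF_HPD 2, at 55.0 TPM against 72.5 TPM in SF_ConD 3. SF_HPD 4 at 651 TPM then passed SC_ConD 2 at 585 TPM.

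H2-Ab1 (ENSMUSG00000073421, chr17:34263209-34269418, plus strand) encodes the beta chain that pairs with H2-Aa. Its FPKM values were 48.7, 40.6, 107, 205 and 351 in SF_HPD, 715, 116, 31.8, 519 and 317 in SF_ConD, and 59.6, 329 and 130.2 in SC_ConD. H2-Eb1 (ENSMUSG00000060586, chr17:34305877-34316199, plus strand), the beta chain of the E molecule, stood at 80.1, 74.4, 168, 275 and 639 FPKM in SF_HPD, 1113, 181, 54.3, 718 and 587 FPKM in SF_ConD, and 93.4, 523 and 246 FPKM in SC_ConD. By FPKM both genes repeated the H2-Aa pattern, with SF_ConD 1 highest and SC_ConD 2 above SF_HPD 1 to 4. By TPM, H2-Ab1 was highest in SF_ConD 4, at 1154 TPM against 1076 TPM in SF_ConD 1. SF_HPD 4 then lay above SC_ConD 2, at 652 TPM against 325 TPM for H2-Ab1 and 875 TPM against 518 TPM for H2-Eb1. An antisense gene model, Gm20513, overlaps 2194 bases of H2-Eb1 and reached 1.94 FPKM, and a strand setting of the counting was not given in the sources used here.

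Cd74 (ENSMUSG00000024610, chr18:60803848-60812646, plus strand) measured 168, 29.8, 176, 709 and 434 FPKM in SF_HPD, 1187, 201, 75.6, 1192 and 356 FPKM in SF_ConD, and 174, 215 and 146 FPKM in SC_ConD. Its 5 highest libraries were the 5 with high B cell markers, and the 3 SC_ConD libraries averaged 178 ± 34.4 FPKM, or 296 ± 159 TPM (SD, n = 3), so they lay close together by FPKM but not by TPM. By TPM, SF_HPD 1 at 638 TPM and SC_ConD 1 at 479 TPM passed SF_HPD 5 at 469 TPM and SF_ConD 5 at 431 TPM. The alpha chain that would pair with H2-Eb1 is annotated in this table as H2-Ea-ps, a pseudogene symbol given for the defective copy of the reference mouse strain. H2-Ea-ps was at 0.441 FPKM in SF_HPD 5 and 0.144 FPKM in SF_ConD 4, and was listed at 0 in the other 11 libraries.

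**Figure D2:**
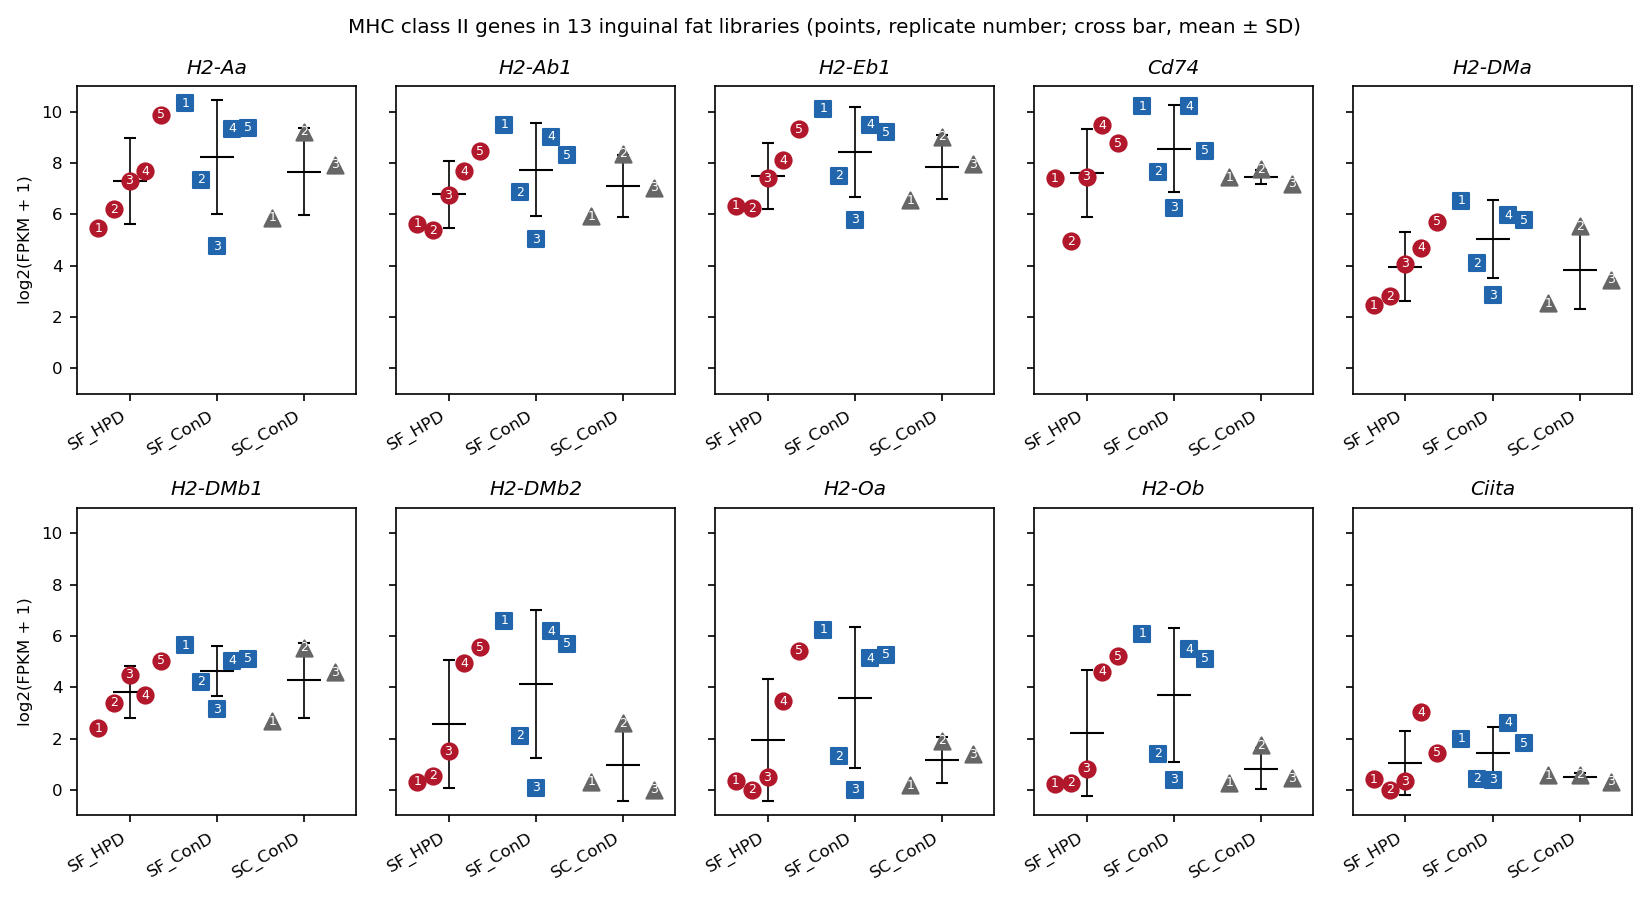
Level of each of the 10 genes as log2(FPKM + 1) (vertical axis) in SF_HPD, SF_ConD and SC_ConD, 1 point per library with its replicate number, and the cross bar and whiskers give the group mean ± SD. SF_ConD 1, 4 and 5 and SF_HPD 4 and 5 lie highest for H2-DMb2, H2-Oa, H2-Ob and Ciita. Their lowest values are 29.5 FPKM for H2-DMb2, 10.01 FPKM for H2-Oa, 23.2 FPKM for H2-Ob and 1.75 FPKM for Ciita. The groups overlap in every panel.

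The ratios between these chains within a library showed which of them kept together. H2-Eb1 over H2-Ab1 was between 1.34 and 1.89 in all 13 libraries. H2-Aa over H2-Ab1 was 0.880 in SF_HPD 1, 0.998 in SF_HPD 4, 0.823 in SF_ConD 3 and 0.961 in SC_ConD 1, and between 1.25 and 2.68 in the other 9. Cd74 over H2-Aa was 3.91, 3.47, 2.89 and 3.04 in those same 4 libraries, against 0.363 to 1.84 in the other 9. These 4 are the libraries whose long transcripts ran high, and the part of that trend in the ratios was not tested. The gene lengths given in the table are 1874 bases for H2-Aa, 1637 for H2-Ab1, 1410 for Cd74 and 1184 for H2-Eb1. H2-Aa, the longest of these, was thus low against the shorter H2-Ab1 and Cd74 in the 4 libraries whose long transcripts ran high.

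The peptide editor H2-DM needs an alpha chain, H2-DMa, and a beta chain that the mouse encodes in a pair of neighbouring genes. H2-DMa (ENSMUSG00000037649, chr17:34135182-34139101, plus strand) was at 4.54, 6.05, 15.8, 25.1 and 51.5 FPKM in SF_HPD, 91.2, 16.1, 6.18, 61.2 and 53.4 FPKM in SF_ConD, and 4.81, 45.3 and 9.97 FPKM in SC_ConD. Every library thus held the alpha chain, at 0.0411 to 0.236 times the FPKM of H2-Aa. H2-DMb1 (ENSMUSG00000079547, chr17:34153072-34160230, plus strand) had 4.29, 9.49, 21.5, 11.9 and 31.6 FPKM in SF_HPD, 48.7, 17.6, 7.88, 31.9 and 33.6 FPKM in SF_ConD, and 5.39, 45.5 and 23.0 FPKM in SC_ConD. Among the 7 genes with reads in every library its range was the narrowest, with the highest library 11.4 times the lowest.

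H2-DMb2 (ENSMUSG00000037548, chr17:34143307-34151553, plus strand), the second beta chain gene, behaved differently from H2-DMb1. It was at 0.246, 0.473, 1.83, 29.5 and 45.8 FPKM in SF_HPD, at 95.7, 3.29, 0.0611, 71.4 and 50.7 FPKM in SF_ConD, and at 0.243, 5.04 and 0 FPKM in SC_ConD. The value of 0 in SC_ConD 3 means no read, which allows up to 0.154 FPKM at a floor of 3 reads. H2-DMb2 over H2-DMb1 was 2.49 and 1.45 in SF_HPD 4 and 5 and 1.97, 2.24 and 1.51 in SF_ConD 1, 4 and 5. In the other 7 libraries that held a read of H2-DMb2 it was 0.00775 to 0.187. H2-DMb1 has 22.7% of its 50-base stretches in common with H2-DMb2, so the split of reads between the pair is uncertain.

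The H2-O chains, which hold H2-DM back, were close to absent in most libraries and abundant in 5. H2-Ob (ENSMUSG00000041538, chr17:34238903-34245907, plus strand) was at 0.178, 0.220, 0.774, 23.2 and 35.8 FPKM in SF_HPD, 67.1, 1.66, 0.315, 43.5 and 33.3 FPKM in SF_ConD, and 0.207, 2.32 and 0.363 FPKM in SC_ConD. H2-Oa (ENSMUSG00000024334, chr17:34092340-34095234, plus strand) gave 0.285, 0, 0.404, 10.01 and 41.7 FPKM in SF_HPD, 74.2, 1.48, 0, 34.0 and 37.4 FPKM in SF_ConD, and 0.135, 2.79 and 1.61 FPKM in SC_ConD. For both genes the 5 libraries with high B cell markers lay at 10.01 FPKM or above and the other 8 at 2.79 FPKM or below. The 2 libraries listed at 0 for H2-Oa held no read of it, which allows up to 0.264 FPKM in SF_HPD 2 and 0.119 FPKM in SF_ConD 3.

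The summed FPKM of H2-Oa and H2-Ob was 0.898 and 0.932 times that of H2-DMa and H2-DMb1 in SF_HPD 4 and 5, and 1.01, 0.832 and 0.813 times in SF_ConD 1, 4 and 5. It was 0.0141 to 0.0930 times in the other 8 libraries. With H2-DMb2 counted among the editor chains as well, the ratio was 0.499 and 0.601 in SF_HPD 4 and 5 and 0.600, 0.471 and 0.513 in SF_ConD 1, 4 and 5, against 0.0137 to 0.0847 in the other 8. By either sum the 5 libraries with high B cell markers had the 5 highest ratios. H2-Eb2, another class II beta chain locus, reached 8.84 and 16.3 FPKM in SF_HPD 4 and 5, with 17.3, 15.3 and 8.03 FPKM in SF_ConD 1, 4 and 5. It was at 0.134 FPKM or below in the other 8.

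**Figure D3:**
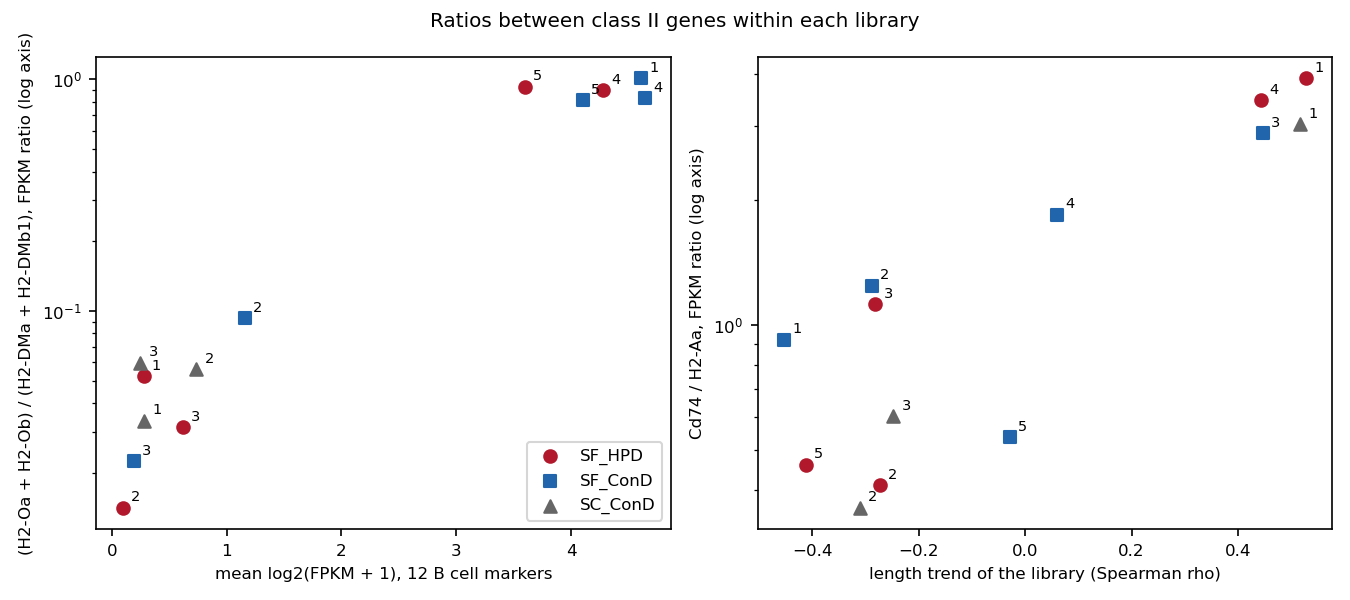
Left, summed FPKM of H2-Oa and H2-Ob over that of H2-DMa and H2-DMb1 (log axis) against the mean log2(FPKM + 1) of 12 B cell markers, and right, Cd74 over H2-Aa (log axis) against the library's length trend (Spearman rho), 1 numbered point per library in both. The 5 libraries with B cell means of 3.60 or more have ratios of 0.813 to 1.01 in the left panel, which leaves H2-DMb2 out, and the 4 with length trends of 0.442 or more have Cd74 to H2-Aa ratios of 2.89 to 3.91.

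Ciita (ENSMUSG00000022504, chr16:10480059-10528418, plus strand), the transactivator of class II genes, was the lowest of the 10 in 8 libraries. It was at 0.339, 0, 0.262, 7.18 and 1.75 FPKM in SF_HPD, 2.99, 0.344, 0.318, 5.14 and 2.52 FPKM in SF_ConD, and 0.492, 0.508 and 0.249 FPKM in SC_ConD. The same 5 libraries were the highest, at 1.75 FPKM or more, with the other 8 at 0.508 FPKM or less. SF_HPD 2 held no read, which allows up to 0.0363 FPKM, and yet had 29.8 FPKM of Cd74 and 72.6 FPKM of H2-Aa. Dexi, on the opposite strand, overlaps Ciita over 25888 bases and reached 11.6 FPKM, so reads of the pair may not be fully separated.

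The 10 genes differed in how closely their order of libraries matched that of the B cell markers. For H2-DMb2, H2-Oa, H2-Ob, Ciita and Cd74 the 5 highest libraries by FPKM were exactly the 5 with high B cell markers. For H2-Aa, H2-Ab1, H2-Eb1, H2-DMa and H2-DMb1, 4 of those 5 were among the top 5, and SC_ConD 2 took the place of SF_HPD 4. By TPM the 5 libraries were the top 5 for 8 of the 10 genes, the exceptions being Cd74 and H2-DMb1 with 3 of the 5. SC_ConD 2 had B cell markers at 0.73, macrophage markers at 4.26 and dendritic cell markers at 1.55, as means of log2(FPKM + 1). The dendritic cell markers also had their 5 highest means in the 5 libraries with high B cell markers. The part that each cell type played in these levels was not tested.

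**Figure D4:**
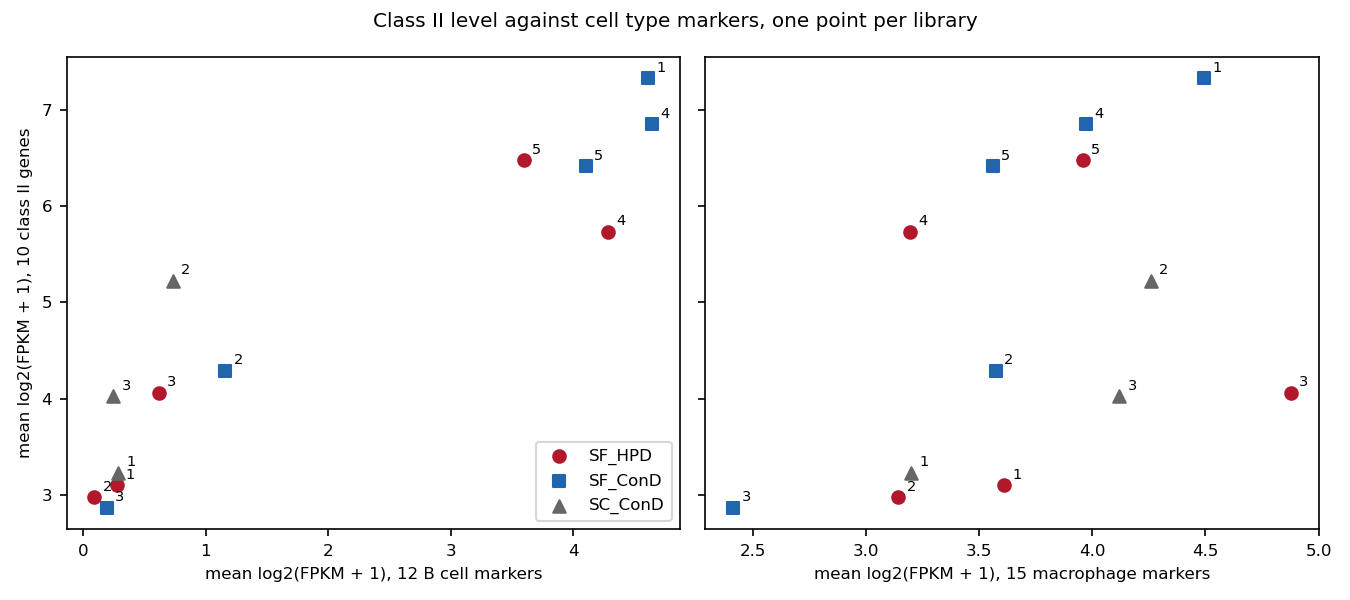
Mean log2(FPKM + 1) of the 10 class II genes (vertical axis) against that of 12 B cell markers (left) and 15 macrophage markers (right), 1 numbered point per library. The 5 libraries with B cell means of 3.60 to 4.64 have class II means of 5.74 to 7.32, and the other 8 have class II means of 2.87 to 5.23.

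The genes whose profiles over the 13 libraries were most like those of 3 of the class II genes were taken from 9658 candidates, by the mean absolute difference of centred log2(FPKM + 1) values. For H2-Ob, 4 of the 5 closest were Timd4, Gimap3, Ccl22 and Fcrla, with mean differences of 0.229, 0.288, 0.295 and 0.309. Among the class II genes, H2-DMb2 at 0.313 and H2-Oa at 0.338 were nearly as close to H2-Ob. For Cd74 the closest were Vav1 at 0.363, Lyve1 at 0.434, Dok3 at 0.452, Grap at 0.456 and Il2rg at 0.459. The nearest class II gene to Cd74 was Ciita at 0.548. As the 5 were picked as the closest of 9658 candidates, their smaller differences test nothing. For Ciita they were Rasgrp1 at 0.218, Adcy7 at 0.231, Arhgap30 at 0.254, Nfkbie at 0.256 and Dock2 at 0.275. With TPM, 3 of 5 genes stayed on the lists of H2-Ob and Ciita and 1 of 5 on that of Cd74.

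SF_HPD against SF_ConD asks what the high-protein diet did under fragmented sleep. All 10 class II genes had lower mean log2 levels in SF_HPD, and none of the differences passed the test. Over all genes, 51.9% had a fold change above 0. Their log2 fold changes ran from -1.64 (SE 1.30) for H2-Oa to -0.40 (SE 0.58) for Ciita, with a median of -0.96, against 0.01 over all 14421 genes. Cd74 averaged 303 ± 269.6 FPKM in SF_HPD and 602 ± 545 FPKM in SF_ConD (SD, n = 5 each), a log2 fold change of -0.96 (SE 0.91). H2-Aa averaged 284 ± 373 FPKM in SF_HPD and 558 ± 498 FPKM in SF_ConD (SD, n = 5 each), with a log2 fold change of -0.93 (SE 1.11). H2-Ob averaged 12.0 ± 16.5 FPKM in SF_HPD and 29.2 ± 28.5 FPKM in SF_ConD (SD, n = 5 each), with a log2 fold change of -1.47 (SE 1.28). In each case the SD was about as large as the mean.

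Limma with Benjamini-Hochberg adjustment called 0 of the 10 genes in this comparison, and 0% of all genes. At an unadjusted p under 0.05 it marked 0 of the 10 and 1.89% of all genes, and limma-voom on recovered reads also called 0. No class II gene separated the groups without overlap, as 0.458% of all genes did. Of the 5 libraries with high B cell markers, 2 are SF_HPD and 3 are SF_ConD. The summed FPKM of these markers was 0.880 to 379.5 in SF_HPD and 1.89 to 846 in SF_ConD, with Cd79a, Cd79b and Ighd listed at 0 in SF_HPD 2. The median log2 fold change of the B cell markers was -1.18, with 12 of 12 negative and none called, and that of the 10 T cell markers -1.27. Markers of other tissues differed as much, with medians of -1.57 for 8 epithelial markers (7 negative), -1.16 for 10 liver markers (9 negative) and 1.94 for 6 skeletal muscle markers (6 positive), and none of these was called. The epithelial markers had mean log2(FPKM + 1) values of 0.47 to 7.87 in SF_HPD, lowest in SF_HPD 4 and highest in SF_HPD 2, and 4.68 to 6.78 in SF_ConD. The part of this content in the class II values was not tested. The median of the class II genes was -0.28 without those 5 libraries, and -0.10 with the B cell mean as a covariate. It was -1.46 without SF_HPD 5, -0.56 without SF_ConD 1 and -1.64 without SF_ConD 3. The 5 libraries with high B cell markers also had the 5 highest shares of class II reads, and B cells express these genes. Leaving them out takes away the highest class II values and keeps only SF_ConD 2 and 3 of that group. Neither that value nor the one with the covariate can tell B cell content from class II level.

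SF_HPD against SC_ConD sets fragmented sleep and the high-protein diet together against mice with normal sleep on chow. Fold changes of the class II genes lay on both sides of 0. H2-DMb2 (log2 fold change 1.60, SE 1.60), H2-Ob (1.41, SE 1.47), H2-Oa (0.78, SE 1.503) and Ciita (0.55, SE 0.67) had the largest positive values. The classical chains lay slightly on the other side, at -0.36 (SE 1.28) for H2-Aa, -0.33 (SE 1.03) for H2-Ab1 and -0.37 (SE 1.02) for H2-Eb1, and so did H2-DMb1 at -0.47 (SE 0.73). Cd74 at 0.14 (SE 1.05) and H2-DMa at 0.11 (SE 0.95) were near 0. H2-Ob averaged 12.0 ± 16.5 FPKM in SF_HPD (SD, n = 5) and 0.964 ± 1.18 FPKM in SC_ConD (SD, n = 3), while H2-Eb1 averaged 247 ± 233 FPKM in SF_HPD and 287 ± 218 FPKM in SC_ConD.

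None of the 10 genes passed here either, with 6 fold changes above 0 (51.8% of all genes), 4 below and a median of 0.13, against 0.02 over all genes. Limma with Benjamini-Hochberg adjustment called 0% of all genes and 0 of the 10. At an unadjusted p under 0.05 it marked 3.68% of all genes and 0 of the 10, limma-voom called 0, and 1.64% of all genes but no class II gene were without overlap. The median depended on single libraries, at -0.20 without SF_HPD 4, -0.24 without SF_HPD 5, -0.20 without SC_ConD 1 and -0.04 without SC_ConD 3, and at 0.34, 0.60 and 0.50 without SF_HPD 1, SF_HPD 2 and SC_ConD 2. It was 1.27 without SC_ConD 2 and 3, the libraries that hold liver transcripts, -0.85 without the 5 libraries with high B cell markers, and -0.60 with the replicate number as a block. The 5 libraries with high B cell markers also had the 5 highest class II shares, so the value without them tests no cause.

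SF_ConD against SC_ConD asks what fragmented sleep did on chow. All 10 genes had higher mean log2 levels in SF_ConD, where 47.4% of all genes did, and none passed. The differences were widest for H2-DMb2, H2-Ob and H2-Oa. H2-DMb2 averaged 44.2 ± 42.0 FPKM in SF_ConD (SD, n = 5) and 1.76 ± 2.84 FPKM in SC_ConD (SD, n = 3), a log2 fold change of 3.16 (SE 1.60; limma adjusted p = 0.881). H2-Ob averaged 29.2 ± 28.5 FPKM in SF_ConD and 0.964 ± 1.18 FPKM in SC_ConD, a log2 fold change of 2.88 (SE 1.47; limma adjusted p = 0.881). H2-Oa had a log2 fold change of 2.42 (SE 1.503), with 29.4 ± 30.6 FPKM in SF_ConD and 1.51 ± 1.33 FPKM in SC_ConD. For all 3 genes 2 of the 5 SF_ConD libraries did not exceed SC_ConD, as SF_ConD 2 lay within its range and SF_ConD 3, at 0.315 FPKM or below, within or below it.

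The other class II genes had smaller fold changes in this comparison. Cd74 had a log2 fold change of 1.10 (SE 1.05), H2-DMa of 1.20 (SE 0.95) and Ciita of 0.95 (SE 0.67). H2-Ab1 (0.64, SE 1.03), H2-Eb1 (0.57, SE 1.02), H2-Aa (0.56, SE 1.28) and H2-DMb1 (0.37, SE 0.73) were smaller. The median was 1.03, against -0.03 over all genes. Limma with Benjamini-Hochberg adjustment called 0% of all genes and 0 of the 10, and limma-voom called 0. At an unadjusted p under 0.05 limma marked 5.74% of all genes and 0 of the 10, and 3.6% of all genes but none of the 10 were without overlap.

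B cell markers had a median log2 fold change of 2.35 in the same comparison, with 12 of 12 genes positive and none called, and T cell markers one of 2.48 over 10. The summed FPKM of the B cell markers was 1.89 to 846 in SF_ConD and 2.77 to 11.5 in SC_ConD, and Ighd was listed at 0 in SC_ConD 2 and 3. Macrophage markers had a median of -0.07 over 15 genes and dendritic cell markers one of 0.53 over 10. Without the 5 libraries with high B cell markers the median of the class II genes was -0.51, and with the B cell mean as a covariate it was -0.57, with 10 of 10 negative. Without SC_ConD 2 and 3 it was 2.16, without SF_ConD 3 it was 1.55, without SF_ConD 4 it was 0.67, and with the replicate number as a block it was 0.32. The 5 libraries with high B cell markers also had the 5 highest class II shares. The values without them or with the covariate thus test no cause. The 3 comparisons share their groups, so their values are not independent of each other.

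**Figure D5:**
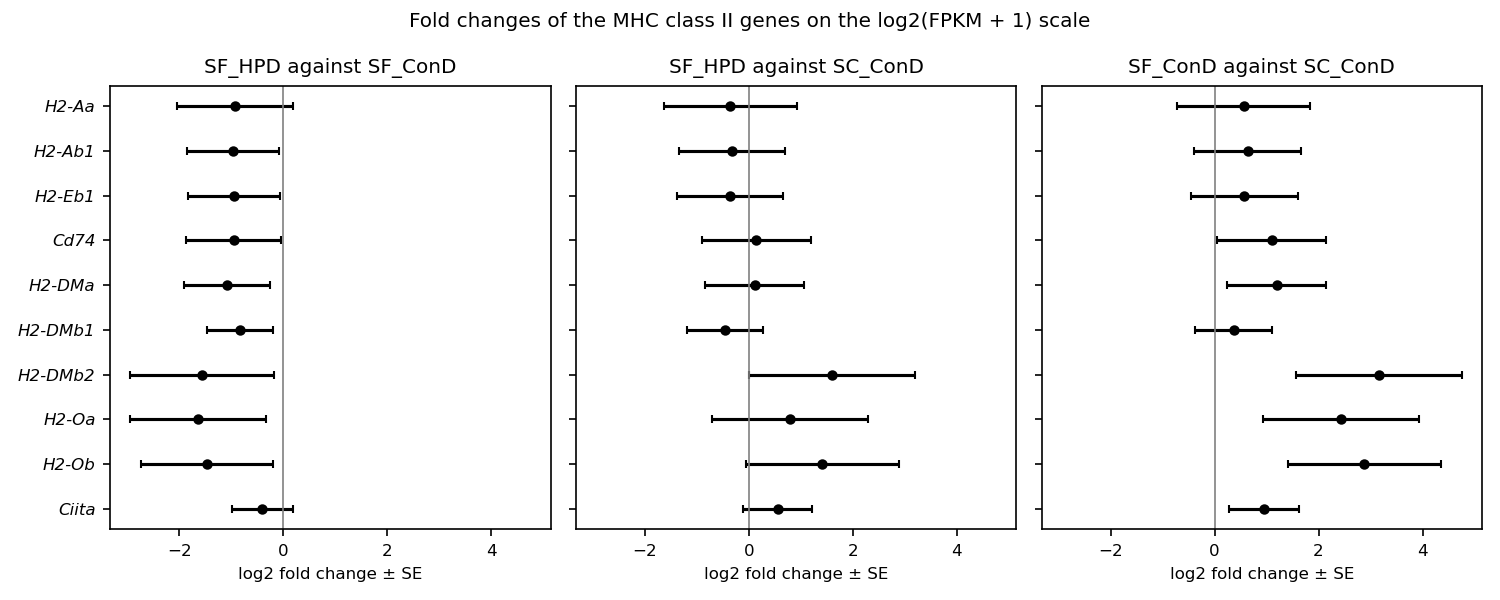
Log2 fold changes on the log2(FPKM + 1) scale (horizontal axis; points, with bars of ± 1 SE from limma) of the 10 class II genes in the 3 comparisons. All 10 points lie below 0 for SF_HPD against SF_ConD and above 0 for SF_ConD against SC_ConD, and none of them passed the test.

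The factors that act on class II promoters, and the interferon gamma pathway that induces Ciita outside B cells, were followed in a list of 16 genes, 15 of which passed the filter. None was called in any comparison, and the median log2 fold changes were -0.33 for SF_HPD against SF_ConD, 0.15 for SF_HPD against SC_ConD and 0.49 for SF_ConD against SC_ConD. Rfx5, a subunit of the complex on the X box, had a log2 fold change of 0.43 (SE 0.31) for SF_HPD and of 0.58 (SE 0.31) for SF_ConD against SC_ConD. Its subunit partner Rfxap had one of -0.55 (SE 0.28) for SF_HPD against SC_ConD. Of the subunits of the factor on the Y box, Nfyc had 0.49 (SE 0.27) for SF_ConD against SC_ConD, and Nfya had -0.71 (SE 0.42) for SF_HPD against SF_ConD.

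Of the signalling genes, the interferon gamma receptor chain Ifngr1 had a log2 fold change of -1.03 (SE 0.46) and the factor Irf1 one of -0.79 (SE 0.38) for SF_HPD against SF_ConD. Ifng itself did not pass the filter and reached 0.714 FPKM at most. Of 11 genes kept that interferon gamma induces in many cells, 10 were negative for SF_HPD against SC_ConD, with a median log2 fold change of -1.76 and 0 called.

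Iigp1, an interferon-inducible GTPase, was at 1.70 to 12.5 FPKM in SF_HPD and 18.4, 286 and 183 FPKM in SC_ConD, without overlap (log2 fold change -3.52, SE 0.79; limma adjusted p = 0.394). Cxcl9, a chemokine, had a log2 fold change of -3.35 (SE 1.06) and Gbp2, another GTPase, one of -1.93 (SE 0.67). Both Iigp1 and Cxcl9 were over 10-fold higher in SC_ConD 2 than in SC_ConD 1, and SC_ConD 2 and 3 are the libraries with liver transcripts. The part of that content in the difference was not tested. Against SF_ConD, SF_HPD had negative fold changes for 11 of these 11 genes, with a median of -0.79, led by Ido1 at -3.28 (SE 1.07). For SF_ConD against SC_ConD the median was -0.58, with 3 of 11 positive.

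Antigen processing genes, which cut proteins and the invariant chain in endosomes, were close to even. Their medians over 11 genes were -0.04 for SF_HPD against SF_ConD, 0.21 for SF_HPD against SC_ConD and 0.06 for SF_ConD against SC_ConD, with 0 called. Ifi30, the thiol reductase of endosomes, was at 23.9 to 182 FPKM in SF_ConD and 14.8 to 25.2 FPKM in SC_ConD (log2 fold change 1.82, SE 0.74; limma adjusted p = 0.861). Ctss, the protease that trims Cd74, had 1.56 (SE 1.22) in that comparison. March8, a ligase that removes class II molecules from the surface, had 0.42 (SE 0.27) for SF_HPD against SF_ConD and 0.43 (SE 0.31) against SC_ConD.

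Genes of recognition and costimulation act where class II molecules meet CD4 T cells. Over 9 genes their medians were -0.33 for SF_HPD against SF_ConD, 0.60 for SF_HPD against SC_ConD and 1.32 for SF_ConD against SC_ConD, with 0 called. Cd4, the coreceptor that binds class II, had a log2 fold change of 2.05 (SE 0.99), Cd86 one of 1.56 (SE 0.83) and Icosl one of 1.38 (SE 0.74) for SF_ConD against SC_ConD. Class I presentation, the pathway for peptides from the cytosol, had medians over 12 genes of -0.73 for SF_HPD against SF_ConD, -0.20 for SF_HPD against SC_ConD and 0.51 for SF_ConD against SC_ConD. H2-K1 averaged 367 ± 202 FPKM in SF_HPD and 679 ± 297 FPKM in SF_ConD (SD, n = 5 each; log2 fold change -0.93, SE 0.50), and none of the 12 was called. H2-Eb2 had log2 fold changes of -0.82 (SE 1.04), 1.42 (SE 1.20) and 2.24 (SE 1.20) in those comparisons.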

How the data were processed

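Per the labels' protocols, RNA was extracted with TRIzol from tissue of individual mice, so each of the 13 libraries was taken as 1 animal. The authors' deposited table gives FPKM per gene. CASAVA, HISAT2 2.0.5, featureCounts 1.5.0-p3 and the build mm8 are named in the submitters' processing notes. Of 54532 gene identifiers, 53585 had the same start and end in the GENCODE annotation of GRCm38. Of the class II genes described here, only Ciita, H2-DMb1 and H2-Oa did. H2-Aa, H2-Ab1, H2-Eb1, Cd74, H2-DMa, H2-DMb2 and H2-Ob had no such match. Coordinates are as the table gives them, and were taken to be on GRCm38 from the match over all identifiers. The strand setting and the annotation's version were not given in the sources used here. FPKM times gene length, divided by the smallest step of a library, was whole within 0.05 for 100% of values. The divisor that the FPKM values imply was 0.479 to 1.23 times the recovered reads, of an origin not given in the sources used here. Symbols turned into dates (27) were restored by identifier.

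Values were taken as log2(FPKM + 1), a scale on which changes of low genes are understated. Group means were fitted with limma 3.58.1 (R 4.3.3) to the 13 libraries at once, with eBayes (trend, robust). Tests were two-sided, p was adjusted by Benjamini-Hochberg over the 14421 genes kept, and the threshold was 0.05. The steps were tested on simulated data. The length trend is the Spearman rho, across genes, of log2 gene length with a library's deviation from each gene's median. A count of 0 was read against a floor of 3 reads, which covers counting error only.

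The class II genes and all lists were chosen with earlier results of these data known. Named from each pathway list were up to 3 genes with the smallest limma p in a comparison, and of cell type lists the 3 with the highest mean FPKM. Like genes needed a mean of at least 2 FPKM and a symbol that is no unnamed gene model, pseudogene or antigen receptor segment. Exceptions named after seeing their values were Glycam1, H2-Ea-ps and Ifng. Of the genes these rules name, 2 are not reported here.

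Other settings tried were 0.1 as pseudocount, filters at any FPKM above 0 and at a mean FPKM of 5, scaling to TPM, by median of ratios or by quantiles, plain eBayes, fits of only the 2 groups compared, limma-voom on recovered reads, the replicate number as a block, B cell, macrophage or length trend covariates, and leaving out single libraries, the 5 with high B cell markers, SC_ConD 2 and 3 or, chosen after seeing the data, the 4 with high length trends. No 2 libraries agreed within sampling noise (lowest chi-square per degree of freedom 71.0). Deviations of same-numbered libraries correlated at 0.711, 0.333 and 0.191 across genes between SF_HPD and SC_ConD, each over 0.1. Only replicate 1 was the best match in both directions. A fit with the replicate number as a block was therefore run as an alternative, although no label gives a source for a pairing. The main fits were unpaired. Between the other groups some correlations were negative.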

Additional observations from a re-analysis of the deposited data

Results flagged for a closer look

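Of 22 groups of 5 values examined, 3 held a library whose distance to its nearest neighbour was more than 0.71 of the group's range, a limit that chance passes in about 1 of 20 groups where values are normally distributed. FPKM values are skewed, so that rate may not hold here. On the log2(FPKM + 1) scale none of the 20 gene and group pairs passed the limit, and the gaps of the 3 named below were 0.497 for H2-Aa, 0.361 for H2-Oa and 0.519 for Ciita. H2-Aa was at 942 FPKM in SF_HPD 5 (a gap of 0.820 of the range), against 204 FPKM in the next SF_HPD library. H2-Oa was at 41.7 FPKM in SF_HPD 5 (gap 0.760), with SF_HPD 4 next at 10.01 FPKM. Ciita was at 7.18 FPKM in SF_HPD 4 (gap 0.757), with SF_HPD 5 next at 1.75 FPKM. Both libraries are among the 5 with high B cell markers, and SF_HPD 4 also has a high length trend (0.442) and skeletal muscle transcripts (mean log2(FPKM + 1) 9.40).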

How the results depend on the processing

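Under 26 alternatives for SF_HPD against SF_ConD and 25 for each of the others, none of the 10 class II genes was called, and the medians ran from -1.64 to -0.10, from -0.85 to 1.27 for SF_HPD against SC_ConD and from -0.57 to 2.16 for SF_ConD against SC_ConD. Ciita had a mean FPKM under 5 and drops out at that filter. TPM moved the median over all genes to 0.25 for SF_HPD and 0.16 for SF_ConD against SC_ConD, where the class II medians were 0.40 and 1.27, and limma-voom moved it to -0.12 for SF_HPD against SF_ConD, with a class II median of -1.21, and to 0.16 for SF_ConD against SC_ConD, with one of 1.39. Counts of genes called stayed at 0 except without the 4 libraries with high length trends, with 172 for SF_HPD and 162 for SF_ConD against SC_ConD, and when single libraries were left out, with ranges of 0 to 1 for SF_HPD against SF_ConD (1 without SF_HPD 5), 0 to 196 for SF_HPD against SC_ConD (196 without SC_ConD 1, 1 without SF_HPD 5) and 0 to 194 for SF_ConD against SC_ConD (194 without SC_ConD 1). The cause was not tested. The log2 fold changes of single class II genes that changed sign follow. Without the 5 libraries with high B cell markers, H2-Aa had 0.27 and H2-Eb1 0.011 for SF_HPD against SF_ConD. There, SF_HPD against SC_ConD gave -0.86 for Cd74, -0.24 for Ciita, -0.72 for H2-DMa, -0.18 for H2-DMb2, -0.88 for H2-Oa and -0.37 for H2-Ob. SF_ConD against SC_ConD gave -1.61 for H2-Aa, -1.16 for H2-Ab1, -1.20 for H2-Eb1, -0.51 for Cd74, -0.084 for Ciita, -0.37 for H2-DMa, -0.58 for H2-DMb1 and -0.51 for H2-Oa. With the B cell mean as a covariate, H2-Aa had 0.064 and Ciita 0.20 for SF_HPD against SF_ConD. SF_HPD against SC_ConD then gave -0.87 for Cd74, -0.14 for Ciita, -0.78 for H2-DMa, -0.16 for H2-DMb2, -0.84 for H2-Oa and -0.24 for H2-Ob. SF_ConD against SC_ConD then gave -1.57 for H2-Aa, -1.20 for H2-Ab1, -1.19 for H2-Eb1, -0.78 for Cd74, -0.33 for Ciita, -0.48 for H2-DMa, -0.54 for H2-DMb1, -0.13 for H2-DMb2, -0.60 for H2-Oa and -0.20 for H2-Ob. Quantile normalization gave 0.097 for H2-Aa, 0.13 for H2-Ab1 and 0.12 for H2-Eb1 in SF_HPD against SC_ConD. The replicate block changed no call. With it, SF_HPD against SC_ConD gave -0.62 for Cd74, -0.10 for Ciita, -0.58 for H2-DMa, -0.58 for H2-Oa and -0.0084 for H2-Ob, and SF_ConD against SC_ConD gave -0.30 for H2-Aa, -0.10 for H2-Ab1 and -0.14 for H2-Eb1. With the block and TPM together the values were -0.31 for Cd74, -0.27 for H2-DMa and -0.36 for H2-Oa in SF_HPD against SC_ConD and -0.015 for H2-Aa in SF_ConD against SC_ConD. Without SC_ConD 2 and 3, SF_HPD against SC_ConD gave 1.44 for H2-Aa, 0.86 for H2-Ab1, 0.92 for H2-Eb1 and 1.12 for H2-DMb1, with SC_ConD 1 alone assumed to vary like the other groups. Without the 4 libraries with high length trends it gave -0.42 for Cd74 and -0.29 for H2-DMa, and SF_ConD against SC_ConD gave -0.059 for H2-DMb1. When single libraries were left out, SF_HPD against SC_ConD ranged from -0.32 to 0.81 for Cd74, from -1.26 to 0.41 for H2-Aa, from -0.92 to 0.30 for H2-Ab1, from -1.01 to 0.23 for H2-Eb1, from -0.54 to 0.96 for H2-DMa, from -1.26 to 0.17 for H2-DMb1 and from -0.084 to 1.27 for H2-Oa. SF_ConD against SC_ConD ranged from -0.34 to 1.43 for H2-Aa, from -0.069 to 1.23 for H2-Eb1 and from -0.43 to 1.001 for H2-DMb1. Cd74 had at least 364 reads in every library, while H2-DMb2, H2-Oa and Ciita had 0 to 3 reads in 6 gene and library pairs, where depth limits the value. The SE of the class II fold changes, 0.58 to 1.60, exceeded the median SE over all genes of 0.41 to 0.47. Liver markers had means of 8.39 or more in 2 of the 3 SC_ConD libraries and of 4.54 or less in every other library, so that content and the group cannot be told apart there.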
